A study of Homo sapiens with 2 samples.

Results

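The chromatin loops of the TP63 locus were examined in KYSE180, an established cell line of esophageal squamous cell carcinoma (ESCC). The members were the loops of an H3K27ac HiChIP list with at least 1 bin starting in chr3:188600000-190300000 (hg19), a stretch of 1.7 Mb that holds TPRG1, TP63, LEPREL1 and CLDN1. They were 334 of the 31950 loops of the list (1.05%), with 352 of its 33708 contacts. HiChIP ligates DNA ends that lie together in the nucleus and enriches them for a histone mark, here H3K27 acetylation, which marks active enhancers and promoters. The cells had been transfected with a non-targeting siRNA and carried no other treatment, so 1 condition was measured. Its 2 libraries were labelled as replicates 1 and 2, and the authors deposited 1 list for both. No value below therefore has a replicate spread and no test between samples was possible. The list does not show how deeply each library was sequenced. The methods call the listed loops active and p63-associated and do not say how p63 entered their selection, so the list need not hold every H3K27ac loop of these cells, and a 5′ end without a listed loop is not shown to lack one.

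TP63 is transcribed from alternative promoters. The upstream one gives the long forms, which carry the N-terminal transactivation domain, and the internal one gives the ΔN forms, which lack it. ΔNp63 is the form that predominates in squamous epithelium, where it keeps basal cells in their state and acts as a lineage factor of squamous carcinoma. TPRG1 (tumor protein p63 regulated 1) lies upstream of TP63, LEPREL1, now named P3H2, encodes a prolyl 3-hydroxylase of collagens, CLDN1 encodes the tight junction protein claudin-1, and IL1RAP, at the upper edge of the interval, encodes the accessory protein of the interleukin-1 receptor.

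Genes were placed by their distance from the 5′ end of the long form of TP63, with negative values toward lower coordinates ("below") and positive ones toward higher coordinates ("above"). TPRG1, on the plus strand, ran from -684.2 kb to -306.1 kb, TP63, on the plus strand, from 0 to 265.9 kb with the 5′ end of the ΔN form at 158.2 kb, and LEPREL1, on the minus strand, from 325.3 kb to its 5′ end at 491.0 kb. CLDN1, on the minus strand, lay from 674.3 kb to its 5′ end at 691.1 kb, and IL1RAP, on the plus strand, started at 882.7 kb. These distances came from an annotation of another build (GENCODE 44, on hg38). The spacing of both forms of TP63 was 158233 bases by the positions used for the list and 158270 bases in the annotation, a difference of 37 bases against a bin of 2 kb.

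The first 60 coding bases of both forms are shown because the respective 5′ ends differed in the number of listed loops. That number does not measure a difference in contacts. They were read from the GENCODE 44 transcripts, and capitals mark the bases that the other form does not share. The long form has 323 coding bases of its own before 1720 shared ones, and the ΔN form has 41.
TP63 long form: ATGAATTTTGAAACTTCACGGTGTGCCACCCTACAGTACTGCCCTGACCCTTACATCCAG
TP63 ΔN form: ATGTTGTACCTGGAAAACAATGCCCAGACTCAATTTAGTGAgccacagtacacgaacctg

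The promoters of the long form of TP63, LEPREL1 and CLDN1, which had few or no loops, are shown next. They run from 250 bases before to 50 after the start, in RefSeq sequence of GRCh38.p14, with CG pairs in capitals. These positions belong to that build and not to the list. The TP63 entry is chr3:189631139-189631438 (plus strand, the long form). The LEPREL1 entries are chr3:190120848-190121147 for the main transcript and chr3:190122229-190122528 for an upstream start close to the GENCODE 5′ end that was used to place the gene and in the same bin by its distance from TP63, and the CLDN1 entry is chr3:190322397-190322696, all on the minus strand.
TP63 long form: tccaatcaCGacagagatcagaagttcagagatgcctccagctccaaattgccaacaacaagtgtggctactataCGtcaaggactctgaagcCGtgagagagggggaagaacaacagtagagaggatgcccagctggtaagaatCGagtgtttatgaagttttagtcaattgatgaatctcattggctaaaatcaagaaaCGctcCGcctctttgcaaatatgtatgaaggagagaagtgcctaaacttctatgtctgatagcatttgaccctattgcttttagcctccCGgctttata
LEPREL1 main: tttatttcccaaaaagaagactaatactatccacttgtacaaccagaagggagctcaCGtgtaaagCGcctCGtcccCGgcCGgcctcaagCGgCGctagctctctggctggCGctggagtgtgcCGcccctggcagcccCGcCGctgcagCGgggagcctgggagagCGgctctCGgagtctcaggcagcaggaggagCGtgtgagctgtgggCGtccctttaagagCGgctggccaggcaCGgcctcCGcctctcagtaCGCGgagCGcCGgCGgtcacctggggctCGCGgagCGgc
LEPREL1 upstream: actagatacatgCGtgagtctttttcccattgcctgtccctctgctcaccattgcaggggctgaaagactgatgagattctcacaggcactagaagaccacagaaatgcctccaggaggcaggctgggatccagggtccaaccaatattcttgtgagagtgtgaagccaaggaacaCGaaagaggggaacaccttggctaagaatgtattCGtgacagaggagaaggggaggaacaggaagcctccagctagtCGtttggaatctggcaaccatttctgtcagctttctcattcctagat
CLDN1: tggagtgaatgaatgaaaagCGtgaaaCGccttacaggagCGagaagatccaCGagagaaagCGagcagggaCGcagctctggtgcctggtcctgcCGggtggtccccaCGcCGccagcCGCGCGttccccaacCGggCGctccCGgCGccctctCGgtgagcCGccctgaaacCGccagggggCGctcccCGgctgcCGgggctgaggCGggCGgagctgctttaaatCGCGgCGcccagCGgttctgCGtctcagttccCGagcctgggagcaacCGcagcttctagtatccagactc

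The TP63 window held 7 CG pairs and 43.7% GC, the upstream window of LEPREL1 4 pairs and 49.7%, the main window of LEPREL1 27 pairs and 66.3%, and that of CLDN1 31 pairs and 67%. The median of 35114 RefSeq promoter windows was 14 CG pairs and 58.7% GC, so the TP63 and upstream LEPREL1 windows lay below it and the other two above it. On both strands, the AP-1 motif TGANTCA, present in 7.71% of all windows, was in 0 of these 4, and the AP-2 motif GCCNNNGGC, present in 23.2%, was once in the main LEPREL1 window. The pair of p63 core elements CATGNNNNNNCATG, found in 0.373% of all windows, was in 0 of them. These are matches of letters in short windows. The tables used here hold no window for the ΔN promoter or for TPRG1. The window of IL1RAP, which also had few loops, is not printed and held 36 CG pairs and 73.7% GC.

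The interval was densely connected, and most of its loops stayed within it. Of the 334 loops, 286 had both bins inside, 34 had 1 bin below it and 14 had 1 bin above it. Loops touched 146 of its 850 bins (17.2%). Windows of the same 1.7 Mb length set every 100 kb along the genome held a median of 12 loops where they held any, the highest held 944, and 0.287% of 22657 such windows held as many as the TP63 interval. When distinct bins were counted in place of loops, 1.03% of the windows held at least 146.

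Bins inside the interval also carried more loops each than the rest of the list. The median was 3 loops per bin against 1 over all 34902 bins. Bins with at least 6 loops numbered 41 of 146, or 28.1% (95% Wilson interval 21.4 to 35.9%), where the share over the whole list was 3.05%. Outside the interval it was 2.94% (2.77 to 3.12%), and on the rest of the long arm of chromosome 3 it was 3.65% (2.94 to 4.53%). The intervals of the locus and of both backgrounds did not overlap, but these intervals cover counting error only, and bins of 1 stretch share their neighbourhood.

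Coverage moved with these counts. Each loop carries a second whole number, read here as the coverage of its first (lower) bin. Over the 100 first bins of the locus it had a median of 28.5 (interquartile range 18 to 52.8, 95% interval of the median 22 to 41) and ran from 5 to 117. It was 21 (20 to 22) on the rest of the long arm, 10 (9 to 11) on the short arm and 12 on the other chromosomes. Across the 100 first bins, coverage and the number of loops had a Spearman rho of 0.72, a description of bins that share both libraries and often a stretch. The 318 contacts of loops whose first bin lies in the interval, which leaves out the 34 loops from below, amounted to 8.26% of the summed coverage of these bins (7.43 to 9.17%), against 5.98% (5.74 to 6.23%) on the rest of the long arm, 9.35% (8.52 to 10.2%) on the short arm and 9.51% (9.41 to 9.61%) elsewhere. By these values the locus lay above its own chromosome arm and below the other chromosomes. Only bins with a loop enter, so each holds a contact by construction, which raises the share where coverage is low. The sets differ in coverage and the intervals leave this out, so the order of the shares is a description. The part of the coverage in the counts above was not tested.

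**Figure D1:**
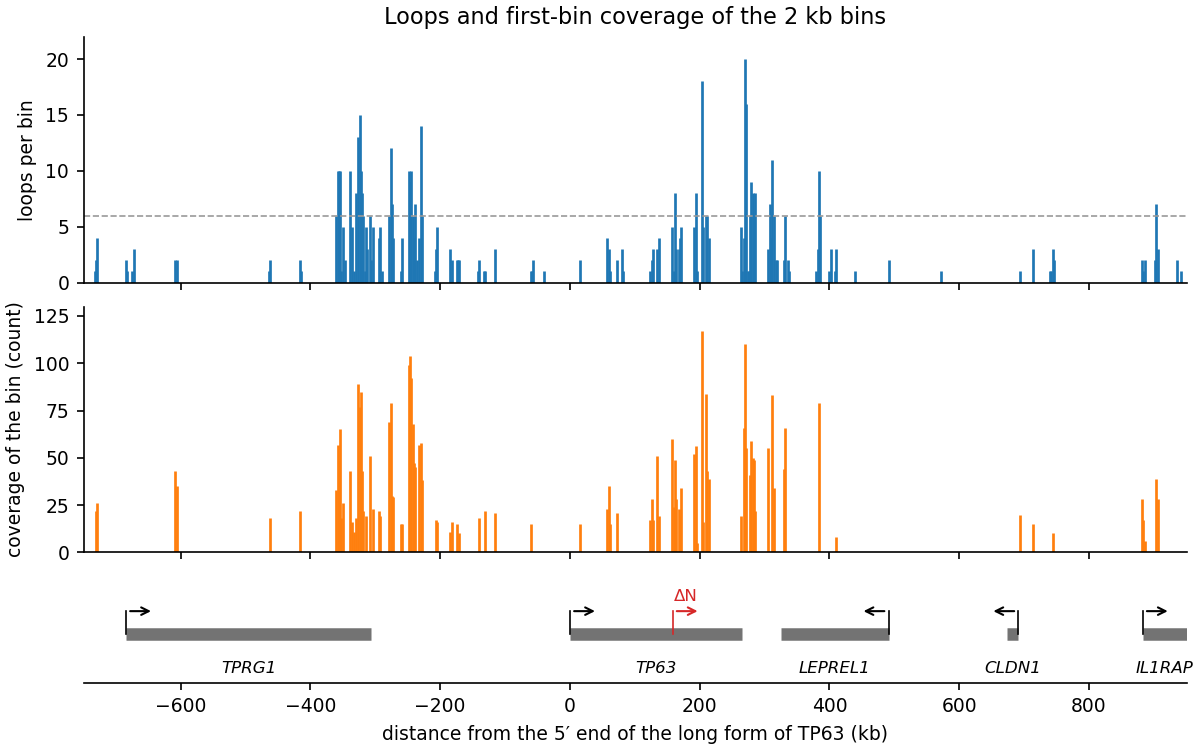
Loops per 2 kb bin (top, dashed line at 6 loops) and coverage of the bins that are first bins (bottom) against the distance in kb from the 5′ end of the long form of TP63, with gene bodies as bars and 5′ ends as arrows. The bins with the most loops lie just past the 3′ end of TP63 (20) and inside its 3′ part (18), the TPRG1 side reaches 15, and CLDN1 has none.

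Nearly every loop rested on a single contact. Of the 334 loops, 320 had 1 contact, 11 had 2, 2 had 3 and 1 had 4. Loops with at least 2 contacts were 14 of 334, or 4.19% (Wilson interval 2.51 to 6.91%), beside 3.36% over the whole list and 3.35% (3.15 to 3.55%) outside the locus, so this share did not stand apart. Within spans of 10 to 50 kb it was 7.45% (3.65 to 14.6%) in the locus and 7.26% (6.76 to 7.79%) elsewhere, and within spans of 50 to 200 kb 5.1% (2.2 to 11.4%) and 2.45% (2.16 to 2.78%). These pairs of intervals overlap as well.

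The span of the loops was like that of the rest of the list. The median was 113 kb (interquartile range 42 to 554 kb, 95% interval of the median 92 to 178 kb) against 120 kb (118 to 124 kb). Spans of 200 kb to 1 Mb made up 31.1% of the loops (26.4 to 36.3%) against 27.6% (27.1 to 28.1%), and spans of at least 1 Mb made up 11.4% (8.4 to 15.2%) against 11.7% (11.3 to 12%). The loops with both bins inside were shorter, with a median of 87 kb.

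The 5′ ends of the genes had unequal numbers of listed loops. A promoter was taken as the bins that reach within 1 kb of the 5′ end, and the wider setting as those within 5 kb. The long form of TP63 had 0 loops in both settings, for which the exact Poisson interval reaches 3.69 listed contacts. The nearest bin with any loop lay 15.8 kb from its 5′ end. The ΔN form had 6 loops with 6 contacts (exact Poisson interval 2.2 to 13.1) within 1 kb and 17 loops with 17 contacts (9.9 to 27.2) within 5 kb. Within 5 kb the Poisson intervals of the 2 forms did not overlap, while within 1 kb they did. The list keeps only loops with H3K27ac at both ends, so a 5′ end without the mark has 0 listed loops whatever its contacts. These intervals therefore describe listed contacts and do not measure a difference in contacts between the forms. The ΔN bins had listed coverage, 60 in the bin that holds its 5′ end, whereas the list gives no coverage for bins without a loop.

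The other promoters had few loops. TPRG1 had 3 loops with 3 contacts (0.619 to 8.77) in both settings and LEPREL1 had 2 loops with 2 contacts (0.242 to 7.22) in both. CLDN1 had 0 loops within 1 kb (up to 3.69 contacts) and 1 within 5 kb. IL1RAP had 3 loops with 4 contacts (1.09 to 10.2) within 1 kb and 5 loops with 6 contacts within 5 kb. All these Poisson intervals overlap one another and that of the ΔN form within 1 kb. At this depth only the wider setting set the ΔN form apart in listed contacts, from the long form, TPRG1, LEPREL1 and CLDN1. Loops between 2 of these promoters numbered 0 in both settings.

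**Figure D2:**
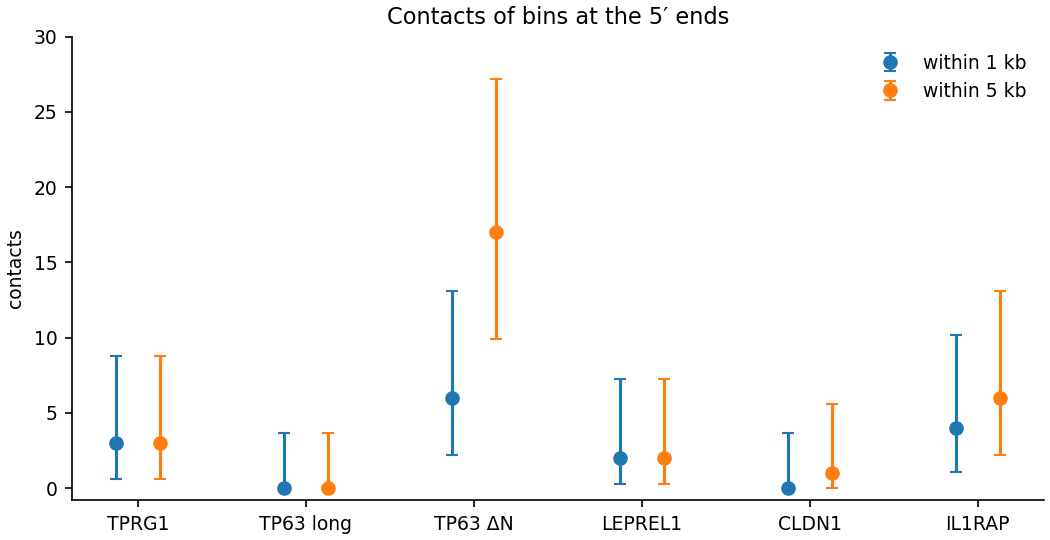
Contacts of the bins within 1 kb (blue) and 5 kb (orange) of each 5′ end, with exact 95% Poisson intervals that cover counting error only. The ΔN form of TP63 has 6 and 17 contacts, the long form 0 and 0, and no other 5′ end exceeds 6.

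The choice of 5′ end mattered for TPRG1 and LEPREL1. The counts above belong to their most upstream annotated 5′ ends. The main transcripts start at -459.4 kb for TPRG1 and 489.5 kb for LEPREL1, and both had 0 loops within 1 kb, with 3 and 2 within 5 kb. When all annotated 5′ ends were pooled, TPRG1 had 24 loops and LEPREL1 had 8. Bins deep in the gene bodies added many of these, such as chr3:189026001-189028000 near the 3′ end of TPRG1, with 10 loops, and chr3:189680001-189682000 near the 3′ end of LEPREL1.

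The ΔN promoter reached both into TP63 itself and toward TPRG1. The bin with its 5′ end, chr3:189506001-189508000, was joined with 2 bins inside the gene 45.6 and 53.6 kb downstream, and with chr3:189618001-189620000, 111.6 kb downstream and just past the 3′ end. The same bin was joined with chr3:189074001-189076000, in the space between TPRG1 and TP63, over 432 kb, and with a bin 1988 kb below, between BCL6 and LPP. The next bin was joined with chr3:189558001-189560000, 51.6 kb downstream of the 5′ end. All 6 loops had 1 contact.

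Within 5 kb, the partners of the ΔN promoter formed a like pattern at more bins. Toward lower coordinates 1 added partner was near, chr3:189482001-189484000 in the part of TP63 that only the long form covers, over 28 kb. The other added partners below were 2 bins in the body of TPRG1, over spans of 516 and 480 kb, and 3 bins in the space between the genes, over 456, 408 and 392 kb. One of these, chr3:189102001-189104000, had a coverage of 104 and 9 loops. Toward higher coordinates, the nearer added partners lay 35.6 kb downstream inside TP63, and 113.6 and 159.6 kb downstream in the space after it. Those at 555.6 and 583.6 kb lay upstream of CLDN1, which is the side of its 5′ end, in chr3:190062001-190064000 and chr3:190090001-190092000. No bin of CLDN1 itself was reached.

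The partners of the other promoters lay in different places. All 3 loops of TPRG1 ran away from TP63, over 994 to 1210 kb, to bins in and above BCL6, a transcriptional repressor of germinal centre B cells. LEPREL1 was joined with chr3:189558001-189560000, inside TP63, over 282 kb and with a bin of its own body over 82 kb. That bin of TP63 is the same one that was joined with the ΔN promoter. The single loop within 5 kb of CLDN1 went 52.7 kb upstream to chr3:190092001-190094000. IL1RAP was joined with chr3:189732001-189734000, in the body of LEPREL1, over 498 kb, and with bins of its own body, once with 2 contacts over 52 kb.

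By number of loops, 4 parts of unequal length led the interval. The body of TPRG1, 378 kb long, was touched by 125 loops with 131 contacts (exact Poisson interval 110 to 155), and the 306 kb between TPRG1 and TP63 by 122 loops with 131 contacts. The part of TP63 from the ΔN 5′ end on, 108 kb long, was touched by 76 loops with 77 contacts (60.8 to 96.2), and the 59.5 kb between TP63 and LEPREL1 by 96 loops with 102 contacts (83.2 to 124). A loop with bins in different parts counts in each. The space between TP63 and LEPREL1 was the most filled, with 57.2% of its length in bins with a loop against 15.9% in TPRG1, 24.2% in the space after it and 29.7% in TP63 from the ΔN 5′ end. Of the parts below, the long-form part of TP63 had 16.4%, LEPREL1 15.7% and IL1RAP 20.6%. By filled length TPRG1 therefore did not stand above them. Its loops were not spread evenly over its length. Stretches at -361.2 to -349.2 kb and -327.2 to -311.2 kb, toward its 3′ end, were touched by 42 and 58 loops. None of its bins from -682.2 to -414.2 kb had more than 3.

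The remaining parts were touched by fewer loops. The 158 kb of TP63 that only the long form covers were touched by 31 loops (21.1 to 44), of which the 5 of the bin with the ΔN 5′ end are counted here because its midpoint lies just below that end. The body of LEPREL1 was touched by 38 loops with 40 contacts (28.6 to 54.5). Beyond it the counts were 3 loops over 183 kb between LEPREL1 and CLDN1, 0 in the 16.7 kb of CLDN1, 11 over 192 kb between CLDN1 and IL1RAP, and 13 in the 68.1 kb of IL1RAP that lie in the interval. CLDN1 thus belongs to the interval by position, while its body had no listed loop.

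Loop-free stretches bounded the connected parts. The longest ran for 140 kb from -605.2 to -465.2 kb inside TPRG1, for 134 kb from 746.8 to 880.8 kb just before IL1RAP, and for 120 kb from 572.8 to 692.8 kb, which contains all of CLDN1. Another of 78 kb began at 492.8 kb, just past the 5′ end of LEPREL1. A bin without a loop in the list may still carry contacts that did not pass the authors' calling.

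Loops lay within the TPRG1 side and within the TP63 side, and long loops joined both sides. Of the 286 inside loops, 104 had both bins below the long 5′ end of TP63, 106 had both above it and 76 crossed it. Of the crossing loops, 72, with 75 contacts, joined TPRG1 or the space after it with TP63, the space after TP63 or LEPREL1. They spanned 230 to 990 kb (median 550 kb) and used 39 lower and 40 higher bins, so they did not rest on a few bins. By higher bin, 8 ended in the long-form part of TP63, 20 in TP63 from the ΔN 5′ end, 32 in the space after TP63 and 12 in LEPREL1.

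**Figure D3:**
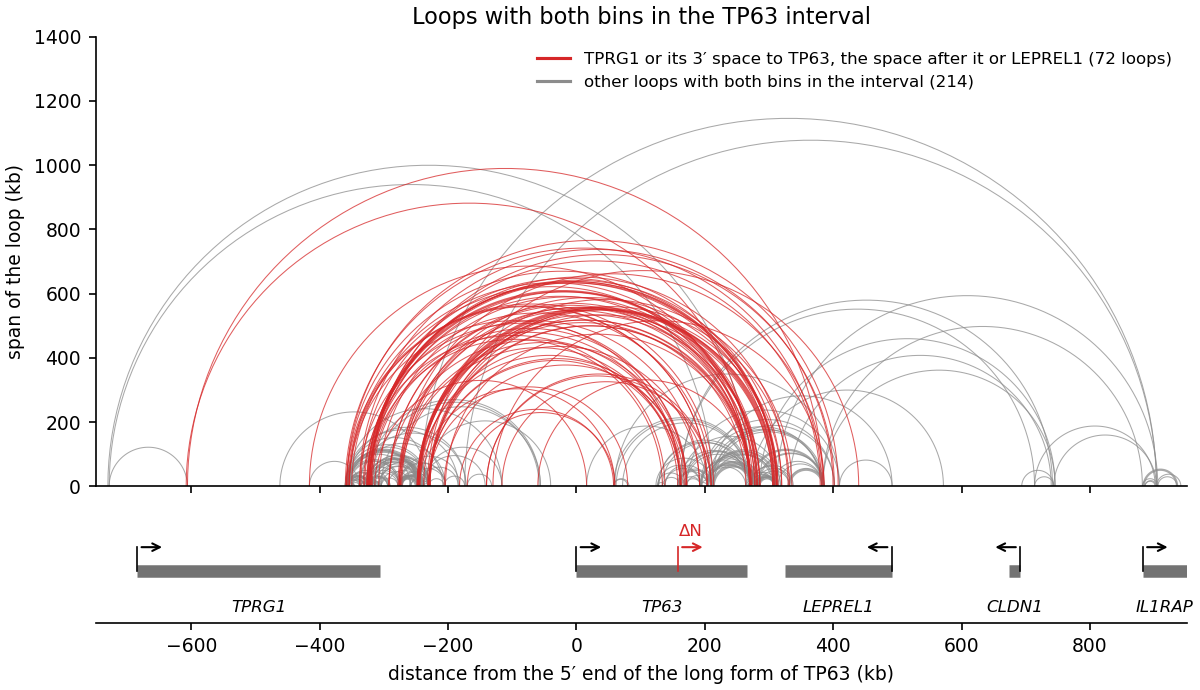
Each arc is 1 of the 286 loops with both bins in the interval, drawn between its bins at their distance in kb from the 5′ end of the long form of TP63, with its height giving the span in kb and thicker lines more contacts. The 72 red loops connect the TPRG1 side with the TP63 and LEPREL1 side and pass over the long 5′ end.

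These cross-gene loops were set against the pairs of bins that could have been joined. Of 3953 pairs between these parts, 1.82% were joined (Wilson interval 1.45 to 2.29%). Of pairs outside the interval at spans of 230 to 990 kb, the range of the joined loops, 0.912% (0.892 to 0.932%) were joined. The 3953 pairs were not cut to that range, so these shares do not cover the same spans. When only pairs whose lower bin had coverage between the quartiles of the locus were kept, the shares were 29 of 1475, or 1.97% (1.37 to 2.81%), and 1.36% (1.31 to 1.41%). The intervals then overlapped. The grouping of these parts was chosen after the loops had been seen, so the shares are a description.

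Over all pairs of bins of the interval, the share stood above the rest of the list at spans of 200 kb to 1 Mb but not in the other classes. The class from 200 kb to 1 Mb contains all the cross-gene loops above, so it is not a separate result. From 200 kb to 1 Mb, 1.45% (1.18 to 1.77%) of the pairs were joined against 0.971% (0.951 to 0.992%) in the rest of the list and 0.972% (0.9 to 1.05%) on the rest of the long arm. From 10 to 50 kb the shares were 12.2% (10 to 14.7%) and 11.6% (11.4 to 11.8%) in the locus and the rest of the list, and from 50 to 200 kb 4.37% (3.59 to 5.31%) and 3.94% (3.86 to 4.02%), with overlapping intervals. From 1 to 5 Mb they were 0.313% (0.107 to 0.918%), which rests on 3 joined pairs, and 0.12% (0.116 to 0.124%), again overlapping. With lower bins of like coverage, the share from 200 kb to 1 Mb was 1.55% (1.14 to 2.11%) in the locus, 1.45% (1.4 to 1.51%) in the rest of the list and 1.31% (1.18 to 1.46%) on the rest of the long arm. The intervals then overlapped at every span, also from 50 to 200 kb, where the locus had 4.51% (3.38 to 6%) and the rest of the list 5.86% (5.66 to 6.06%).

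**Figure D4:**
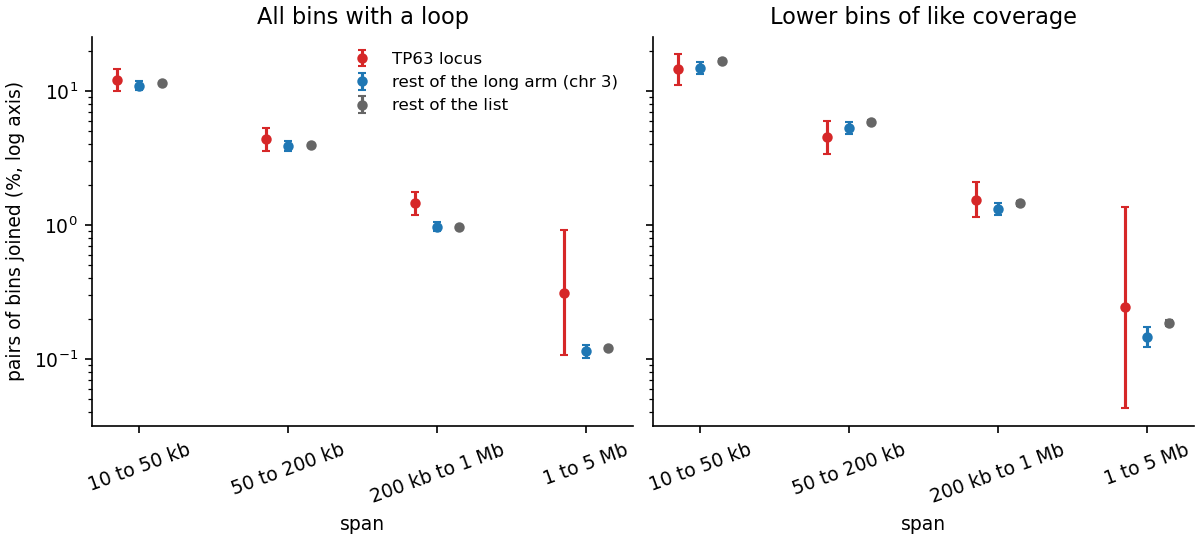
Percent of pairs of bins with a loop that are joined to each other, by span, for the TP63 locus (red), the rest of the long arm of chromosome 3 (blue) and the rest of the list (grey), over all bins (left) and over lower bins of like coverage (right), on a log axis with 95% Wilson intervals. Over all bins the locus stands above both from 200 kb to 1 Mb (1.45% against 0.971% in the rest of the list), and with like coverage the intervals overlap at every span.

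Many loops passed over the 5′ ends without touching them. The long 5′ end of TP63 lay inside 91 loops, 27.2% of all (22.7 to 32.3%), with a median span of 570 kb, and the ΔN 5′ end inside 94 loops, or 28.1% (23.6 to 33.2%). The counts were 30 for TPRG1, 24 for LEPREL1, 23 for CLDN1 and 19 for IL1RAP. Both 5′ ends of TP63 were passed over about equally, although only the ΔN end was itself a listed anchor. They lie 158.2 kb apart and the loops over the ΔN end had a median span of 560 kb. Most of these loops pass over both ends, so the near equality is not a separate result. Loops with both bins outside the interval are not members, which lowers the counts at 5′ ends near its edges.

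**Figure D5:**
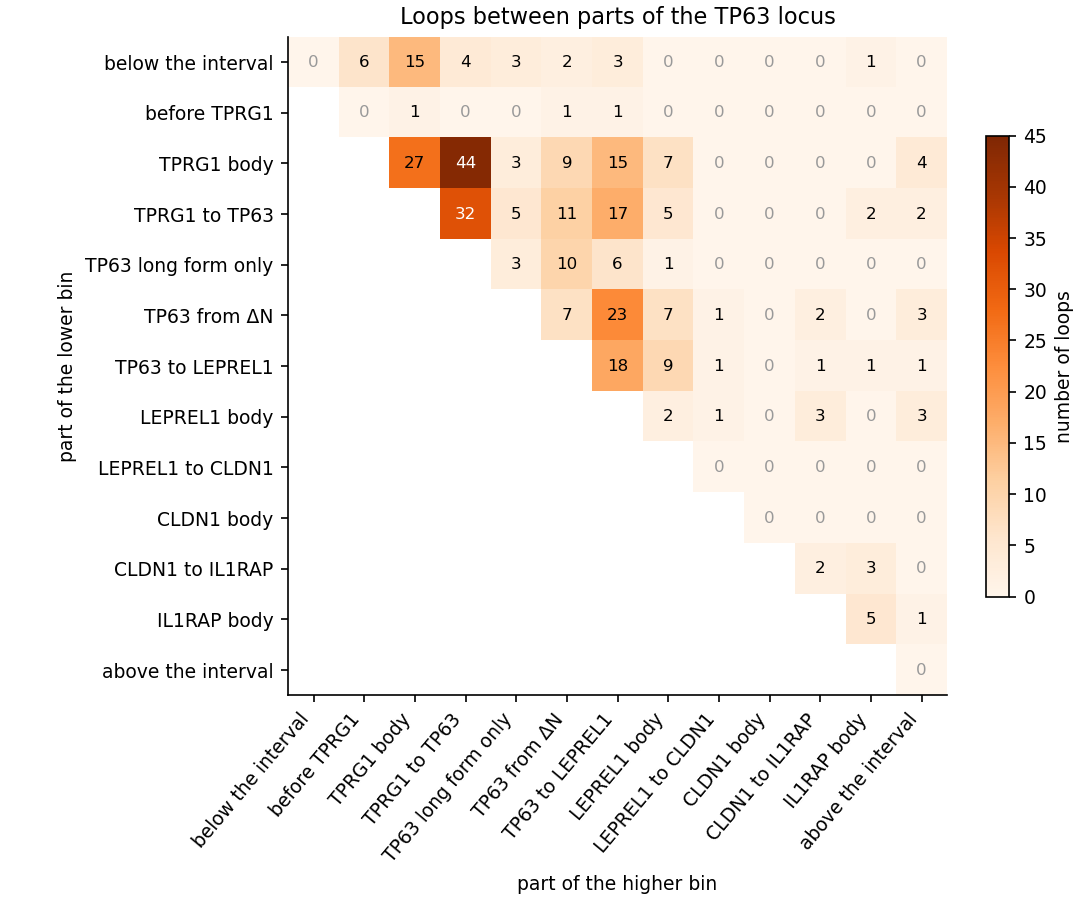
Number of loops between each pair of parts of the locus, with the part of the lower bin on the vertical axis and that of the higher bin on the horizontal axis, and darker cells for more loops. The body of TPRG1 and the space after it share 44 loops, TP63 from the ΔN 5′ end and the space after TP63 share 23, and the row and column of CLDN1 hold 0.

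None of the 5 bins with the most loops was a promoter bin. The first was chr3:189618001-189620000, at 269.8 kb and just past the 3′ end of TP63, with 20 loops, 21 contacts and a coverage of 110. Of these loops, 15 went to lower and 5 to higher coordinates, and 9 crossed the long 5′ end. The neighbouring chr3:189620001-189622000 had 16 loops. Between the ΔN 5′ end and the 3′ end of TP63, chr3:189552001-189554000 at 203.8 kb had 18 loops and the highest coverage of the locus, 117.

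On the other side, chr3:189024001-189026000, at -324.2 kb in the 3′ part of TPRG1, had 15 loops with 17 contacts, and chr3:189118001-189120000, at -230.2 kb in the space between the genes, had 14. Of these loops, 4 and 5 crossed the long 5′ end of TP63. For comparison, the bin with the ΔN 5′ end had 5 loops.

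Bins with loops touched one another in broad stretches. The 146 bins formed 55 stretches, of which 14 were single bins and 9, or 16.4%, were at least 8 kb long, against 2.62% of the 22628 stretches of the list. The longest, chr3:189612001-189636000, was 24 kb long, from 262.8 to 286.8 kb, and contained the 3′ end of TP63. It was touched by 78 loops, and 26 of these crossed the long 5′ end. In the whole list 3 stretches were as long.

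The next stretches lay on the TPRG1 side. They were chr3:189022001-189038000, 16 kb long with 58 loops, in the body of TPRG1, chr3:189100001-189114000, 14 kb long with 47 loops, in the space between the genes, and chr3:188988001-189000000, 12 kb long with 42 loops, again in TPRG1. Above TP63, chr3:189654001-189664000, 10 kb long, was touched by 31 loops. The stretch with the ΔN 5′ end, chr3:189506001-189514000, was 8 kb long and was touched by 17 loops.

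The loops with the most contacts lay mainly in and around TPRG1 and TP63. The only loop with 4 contacts joined chr3:189072001-189074000 with chr3:189100001-189102000, both in the space between TPRG1 and TP63, over 28 kb. A loop of 3 contacts joined chr3:188992001-188994000, in TPRG1, with chr3:189102001-189104000 over 110 kb. The other one with 3 contacts joined that same higher bin with chr3:189656001-189658000, above TP63, over 554 kb, and so passed over the whole gene. Among the 11 loops with 2 contacts, 1 also passed over the whole of TP63, from chr3:189022001-189024000 to chr3:189630001-189632000 over 608 kb. The others with 2 contacts were shorter, at 12 to 114 kb. An exact Poisson interval for a count of 1 runs from 0.0253 to 5.57, so the contact counts of single loops are not distinguishable at this depth.

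Loops that left the interval ran mainly toward lower coordinates, into LPP and BCL6. The 34 loops with a bin below used 28 distinct outside bins and had a median span of 1183 kb, and 24 of them spanned at least 1 Mb. By gene body, 12 of the outside bins' loops ended in LPP, which encodes a protein of focal adhesions, and 7 in BCL6. On the inside, 15 of the 34 started in the body of TPRG1 and 6 in the 65 kb before it. Bin chr3:187456001-187458000, in BCL6, was joined with 3 bins of TPRG1, at -682.2, -672.2 and -324.2 kb.

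By the rule for named genes, the outside 5′ bins that were anchors belonged to 4 protein-coding genes with a symbol. BCL6 had 2 such bins, joined with TPRG1 at -354.2 and -462.2 kb, and LPP had 1, joined with TPRG1 at -464.2 kb over 1014 kb. HRG, which encodes histidine-rich glycoprotein of plasma, was joined with the 3′ stretch of TP63 over 3226 kb. UTS2B, which encodes a urotensin peptide, was joined with TPRG1 over 2038 kb. The bins of LPP and UTS2B held the 5′ end of the main transcript, while those of BCL6 and HRG held 5′ ends of other transcripts only. A further anchor, within the annotated body of BCL6 and joined with the promoter of TPRG1, held the 5′ end of a gene that the annotation lists without a symbol.

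The 14 loops with a bin above had a median span of 3742 kb, and 11 spanned at least 1 Mb. The outside bins of 6 of them had the 5′ end of HES1, a transcriptional repressor and target of Notch signalling, as the nearest one, at 3.0 to 141.0 kb. Their inside bins lay in TPRG1, in the space between TPRG1 and TP63, in TP63 from the ΔN 5′ end and in LEPREL1. All 14 of these loops, like the 34 that ran below, had 1 contact.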

How the data were processed

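H3K27ac HiChIP of KYSE180 cells was deposited as 1 list for 2 libraries of 1 condition, so samples were neither compared nor grouped further. Per the labels, the submitters' processing notes name HiC-Pro and hg19. Loops that the methods call active and p63-associated were called with FitHiChIP in Peak-To-All mode and kept where both ends carried H3K27ac, with versions, thresholds and the peaks used not given in the sources used here. The authors deposited 2 columns of whole-number counts without names and without normalization. They were read here as contacts of a loop and coverage of its first bin, from the order FitHiChIP writes and because contacts exceeded coverage in 0 loops and no first bin had 2 coverage values. There were 0 columns of other samples. The summed coverage is not the depth of the libraries, which limits every value.

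Bins are printed from 1. An hg19 annotation was not used here. Each gene was set at its GENCODE 44 (hg38) distance from the long form of TP63. The hg38 sequence has 0 undetermined bases over the stretch that partner bins reach. Positions were not converted, and an insertion or deletion between the builds would shift a gene. Gene ends divided the interval into parts, and a bin belongs to the part of its midpoint. The long arm of chromosome 3 was taken from 90 Mb on.

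No test was run. Shares have Wilson and counts exact Poisson 95% intervals for counting error only, and intervals of medians come from order statistics. The counting was tested on simulated data. Alternatives were loops of at least 20 kb or 2 contacts, promoter widths and shifts, other 5′ ends, window types and merging of stretches up to 4 kb apart. Named were the 4 genes, genes whose 5′ bin was an anchor, the 5 bins with most loops and the 5 loops with most contacts. Of the last, the loops with 2 contacts tied, and the 1 named among them was the one passing over TP63. Other bins and stretches were named after their values were seen. The members and lists were chosen with earlier results of these data known. Software was scipy 1.17.1, pandas 2.3.3 and numpy 2.4.6 under Python 3.11.15, with matplotlib 3.10.9 for the figures.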

Additional observations from a re-analysis of the deposited data

How the results depend on the processing

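Of 52 recomputed values of 16 results, 36 stayed within 1.5 times of a count or within the counting interval of a share or median. Keeping only loops of at least 2 contacts left 14 loops in the locus and 0 at TPRG1, the ΔN form of TP63 and LEPREL1. Within 5 kb the ΔN form had 17 loops and CLDN1 1. Placing the 5′ ends 1 bin higher gave 1 loop at TPRG1 and 1 at CLDN1, and placing them 1 bin lower gave 0 at LEPREL1. All annotated 5′ ends together gave 24 loops for TPRG1 and 8 for LEPREL1, and the main transcripts, added after seeing the data, gave 0 for both. Over every loop in place of distinct first bins, the median coverage was 49, by construction weighted to bins with many loops. Counted by distinct bins, 99% of windows lay below the locus, against 99.7%. The median span of loops with both bins inside was 87 kb, since longer loops leave the interval. The causes of the other changes were not tested. The long form of TP63 also had 0 loops within 5 kb, 1 bin lower or higher and over all its annotated 5′ ends, while the stricter settings could give nothing else. The comparisons at like coverage were also added after seeing the data. No paired analysis was possible because the list merges 2 libraries of a single condition, which also prevents leaving out a replicate. With 320 of 334 loops at 1 contact, depth limits single loops and promoters, and an unlisted loop is not an absent contact.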
